A study of Homo sapiens with 2 samples.

Results

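The genes described here encode developmental transcription factors, the proteins that give embryonic cells their position and lineage, with the HOX clusters left aside. They were taken from the table by symbol: SOX, PAX, LHX, IRX, DLX, MSX, OTX, TBX, EN or a POU class followed by a number, and likewise the genes of the sine oculis family, such as SIX2, which gave 87 of the 43337 genes listed, in 11 families. RNA was sequenced from BT549, a human triple-negative breast cancer cell line, in 2 libraries. The cells of both carry a SIK1 construct, taken from the series' design text to be overexpressed: SIK1_WT, the wild-type kinase, in 1 library, and SIK1_S435D, in which a serine is replaced by aspartate, in the other. Cells without a construct were not analysed here, and nothing in the labels says how many clones or cultures each library stands for. With 1 library per construct no difference could be tested, no p-value is given, and every interval covers counting error alone.

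These families share DNA-binding domains that define them. SOX factors bind through an HMG box that bends DNA, T-box factors through the T-box, and the sine oculis, LHX, IRX, DLX, MSX, OTX, EN and POU proteins through a homeodomain, which POU factors join to a POU-specific domain. PAX proteins carry a paired domain, in several of them beside a homeodomain. In the embryo they are switched on by signals such as BMP, WNT and Hedgehog and mark neural crest, limb, sense organs, kidney and brain regions, and many are silent in adult epithelium.

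The labelled cell line was first checked against its markers. Of 5 mesenchymal markers all averaged 1 RPKM or more (reads scaled to the length of the gene and to the reads assigned in the library), but VIM, at 116 and 113 RPKM in the SIK1_WT and the SIK1_S435D library, made up most of their sum of 139.7 and 135.3 RPKM, and CDH2 (2.25 and 2.11 RPKM) and FN1 (1.17 in both) lay not far above that line. The oestrogen receptor gene ESR1 had 1 and 0 reads and the progesterone receptor gene PGR had 0 in both, while ERBB2 was at 10.6 and 10.1 RPKM. Of the 9 epithelial and luminal markers 4 passed 1 RPKM, their list summing to 96.9 and 102 RPKM with KRT8 at 45.5 and 47.7 and KRT18 at 37.5 and 41.4 RPKM at its head. Of 4 leukocyte markers 2 passed 1 RPKM, with CD68 at 3.41 and 3.59 RPKM, their list summing to 5.04 and 4.99 RPKM, and the defining marker PTPRC was at 0 reads in both. The endothelial markers PECAM1 and CDH5 were at 0 reads. SIK1 was at 380 and 422 RPKM, a level that does not separate the construct from the cell's own gene. The libraries held 22366506 and 23520828 assigned reads, so 1 read on a gene of 2 kb equals 0.0224 and 0.0213 RPKM.

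Promoters are shown for the 2 most abundant members, for SIX2, and for the paralogues MSX1 and MSX2, whose levels are compared below. Each run is the 250 bases upstream of the start site in RefSeq (GRCh38.p14), 5′ to 3′ on the strand of the gene. RefSeq start sites differ from those of the genes as measured here. The runs of MSX2 and POU4F1 reach into the measured genes, which begin at 174724533 and, on the minus strand, at 78603560. Capitals mark matches to CCAAT, which reads ATTGG where it lies on the other strand, to the POU octamer ATGCAAAT or to the homeodomain core TAATTA. POU4F1 lies at chr13:78603553-78603802, minus strand, SOX12 at chr20:325302-325551, plus strand, SIX2 at chr2:45009453-45009702, minus strand, MSX1 at chr4:4859415-4859664, plus strand, and MSX2 at chr5:174724332-174724581, plus strand.
POU4F1: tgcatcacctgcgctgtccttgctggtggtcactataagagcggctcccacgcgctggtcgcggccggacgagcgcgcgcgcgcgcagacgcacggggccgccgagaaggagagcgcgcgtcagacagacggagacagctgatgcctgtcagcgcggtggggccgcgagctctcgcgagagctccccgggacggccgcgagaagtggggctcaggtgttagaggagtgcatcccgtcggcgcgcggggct
SOX12: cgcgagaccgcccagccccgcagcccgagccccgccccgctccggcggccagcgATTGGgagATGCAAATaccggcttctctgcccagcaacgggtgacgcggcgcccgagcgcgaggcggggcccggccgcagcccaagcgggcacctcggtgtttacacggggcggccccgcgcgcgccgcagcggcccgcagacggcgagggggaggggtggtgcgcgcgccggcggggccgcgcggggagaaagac
SIX2: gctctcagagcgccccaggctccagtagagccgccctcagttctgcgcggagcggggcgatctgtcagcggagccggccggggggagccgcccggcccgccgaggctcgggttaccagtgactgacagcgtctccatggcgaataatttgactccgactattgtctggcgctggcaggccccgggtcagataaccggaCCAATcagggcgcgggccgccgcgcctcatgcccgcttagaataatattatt
MSX1: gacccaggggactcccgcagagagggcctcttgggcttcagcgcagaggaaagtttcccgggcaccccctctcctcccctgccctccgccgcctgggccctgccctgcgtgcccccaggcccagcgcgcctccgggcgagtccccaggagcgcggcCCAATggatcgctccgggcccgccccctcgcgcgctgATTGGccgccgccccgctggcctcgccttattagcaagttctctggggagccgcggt
MSX2: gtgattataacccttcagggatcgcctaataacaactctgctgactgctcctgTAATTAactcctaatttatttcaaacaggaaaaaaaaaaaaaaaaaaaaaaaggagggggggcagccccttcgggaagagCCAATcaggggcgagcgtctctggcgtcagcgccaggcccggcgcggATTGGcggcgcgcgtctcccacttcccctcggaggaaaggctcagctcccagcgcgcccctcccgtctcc

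A set of 5 motifs was searched on both strands: the CCAAT box, the POU octamer ATGCAAAT, the SOX core ACAAAG, the homeodomain core TAATTA and the TATA box letters TATAAA. None of them contains another, and the search covered the 60 of 87 members whose promoters RefSeq's table holds. For 36 of these 60 the first 30 bases after the start site were found in a GENCODE transcript of the gene. CCAAT stood out after the values had been seen. It lay in 16 of the 21 promoters of members with a mean of at least 1 RPKM (76.2%) and in 13 of the 39 promoters of members below it (33.3%). Only these 21 of the 33 expressed members have a promoter here. Below 1 RPKM the share did not fall steadily with level. CCAAT lay in 6 of 20 members with 20 or more reads (30%) and in 2 of 10 with some reads but fewer than 20 (20%). Among members with no reads it lay in 5 of 9 (55.6%). Among protein-coding genes of the table, 36.5% of 7818 promoters above 1 RPKM and 31.6% of 6053 below it held CCAAT, as did 32.0% of all 35116 promoters of that length. No test was made. MSX1 and MSX2 each carry it on both strands, starting 94 and 57 bases before the start site in MSX1 and 117 and 70 in MSX2. The octamer was found in 3 members, SOX12, LHX6 and POU5F2 (5% of 60, against 1.63% of all promoters). ACAAAG was in 6.67% of members and 13.7% of all promoters, TAATTA in 3.33% and 4.35%, and TATAAA in 6.67% and 10.7%. The median ratio of observed to expected CpG was 0.814 in the 21 members above 1 RPKM and 0.800 in the 39 below it, against 0.840 and 0.50 in protein-coding genes above and below 1 RPKM. A match is a run of letters and not a site known to be bound.

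A minority of these genes reached 1 RPKM, and most of the others still had reads. Across the libraries 33 members averaged 1 RPKM or more (37.9%), against 54.1% of 18019 protein-coding genes. Another 29 stayed below 1 RPKM with 20 or more reads over both libraries, 11 had 1 to 19 reads, and 14 (16.1%) had none, against 12.7% of protein-coding genes with none. The median level of the expressed members was 3.15 RPKM, and that of expressed protein-coding genes 5.34 RPKM. Of 39 HOX genes, the homeobox genes of the 4 clusters, 34 passed 1 RPKM, with a median of 5.98 RPKM. A count of 0 reads allows up to 3 reads, which for the 14 silent members means an upper limit between 0.0154 and 0.0722 RPKM in the SIK1_WT library.

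**Figure D1:**
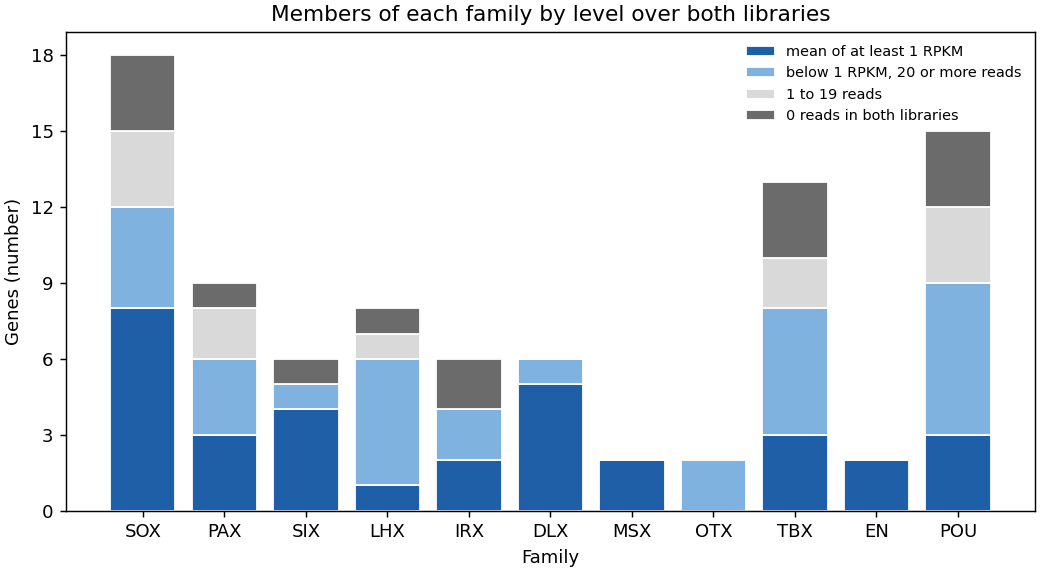
Number of genes in each family (vertical axis) by level class, stacked from expressed to 0 reads in both libraries. All 2 MSX and 2 EN genes and 5 of 6 DLX genes passed 1 RPKM, while both OTX genes and 7 of 8 LHX genes did not.

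The order of the levels was led by factors of sensory neurons, brain, kidney and limb. POU4F1, a POU factor of sensory neurons also called BRN3A (chromosome 13, 78598362 to 78603560, minus strand), was the most abundant at 23.8 RPKM in the SIK1_WT library and 24.1 in the SIK1_S435D library, rank 1564 among the protein-coding genes by mean RPKM. SOX12, a group C SOX factor (chromosome 20, 325595 to 330224, plus strand), stood at 22.8 and 23.7 RPKM. IRX3, an Iroquois factor of neural and limb patterning, was at 15.6 RPKM in both. These 3 genes, with EN2 and SIX2, were the only members at 10 RPKM or more, and these 5 made up 43.4% of the summed RPKM of all 87. EN2, a factor of the midbrain and hindbrain, was at 13.1 and 13.5 RPKM, and SIX2, which maintains nephron progenitors of the kidney, at 13.5 and 12.6 RPKM. For all 5 the counting interval of the fold, SIK1_S435D over SIK1_WT, included 1, with folds between 0.934 for SIX2 (interval 0.837 to 1.04) and 1.04 for SOX12 (0.982 to 1.10).

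**Figure D2:**
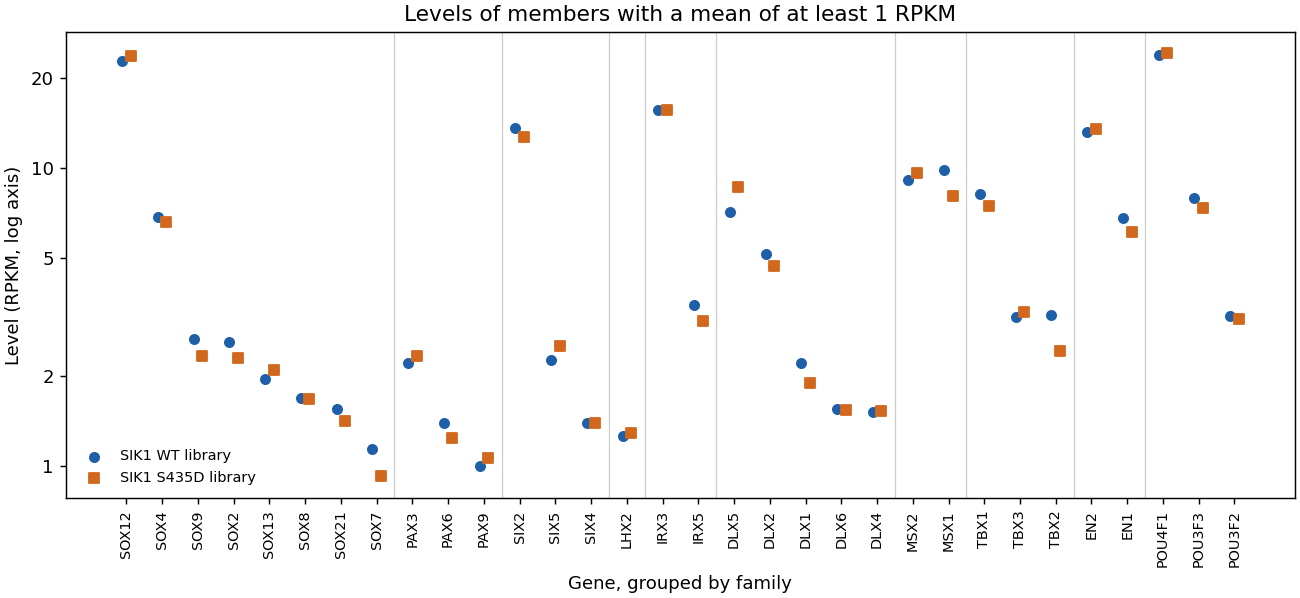
Level in RPKM (log axis) of 32 members with a mean of at least 1 RPKM in the SIK1_WT library (circles) and the SIK1_S435D library (squares), grouped by family. POU4F1 and SOX12 stand highest at 22.8 to 24.1 RPKM, and the gene that leads a family is the same in both libraries in every family shown except MSX. MSX1 and MSX2 had 464 and 463 reads in the SIK1_WT library.

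Of 18 SOX genes, 8 were expressed. SOX4, the group C relative of SOX12 that is active in many carcinomas, was at 6.83 and 6.58 RPKM, and SOX11, the remaining group C gene, had 0 reads in both libraries. SOX9, the master factor of cartilage, was at 2.66 and 2.34 RPKM, its group E relative SOX8 at 1.69 and 1.68, and SOX10, the neural crest and glial member of that group, had 4 and 5 reads. The exons of SOX10 lie wholly within those of POLR2F and MIR6820 as annotated in the table, so even these reads are uncertain. SOX2, a factor of pluripotent and neural progenitor cells, had 147 and 136 reads (2.62 and 2.30 RPKM), and its antagonist SOX21 was at 1.56 and 1.42 RPKM. SOX1 had 0 reads and SOX3 had 5 and 0, so that SOX2 alone of this neural trio was expressed. SOX13 of group D was at 1.96 and 2.10 RPKM, and its relatives SOX5 and SOX6 at 0.639 and 0.603 and at 0.171 and 0.195 RPKM. Of the endothelial group F, SOX7 was at 1.14 and 0.925 RPKM with 39.4% of its exon bases shared with another gene, SOX18 had 21 and 23 reads, and SOX17 had 0. SOX12 alone made up 54.1% of the summed RPKM of the family.

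The POU family of 15 genes was carried by class III and class IV members. POU3F3 and POU3F2, the brain factors BRN1 and BRN2, were at 7.89 and 7.34 and at 3.19 and 3.10 RPKM, while their relative POU3F1 had 19 and 28 reads and POU3F4 had 0. The relatives of POU4F1 were nearly silent, POU4F2 with 1 read in each library and POU4F3 with 1 and 0. POU2F1, the widely expressed octamer factor OCT1, lay just under the 1 RPKM line at 0.999 and 0.869 RPKM with 352 and 322 reads over annotated exons of 15753 bases. POU5F1, the pluripotency factor OCT4, had 15 and 9 reads, 8.61% of its exon bases are shared with TCF19, and its near-identical copy POU5F1B had 3 and 0, which leaves its level uncertain. The antisense gene RP11-52L5.6 covers 27.7% of the exon bases of POU4F1 and had 101 and 102 reads, against 2421 and 2578 for POU4F1.

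Both EN genes and both MSX genes were expressed. EN1, which patterns the ventral limb and the midbrain, was at 6.77 and 6.08 RPKM, so EN2 stood 1.94 times as high in the SIK1_WT library and 2.22 times in the SIK1_S435D library. MSX1 and MSX2, homeodomain repressors induced by BMP in limb, skull and tooth, were at similar levels, and their order by RPKM differed between the libraries. MSX1 had 464 reads in the SIK1_WT library and 401 in the SIK1_S435D library (9.79 and 8.04 RPKM), and MSX2 had 463 and 513 (9.12 and 9.61 RPKM). By RPKM MSX1 was therefore the higher of the pair in the first library and the lower in the second. In the SIK1_WT library that order rests on annotated lengths of 2120 and 2270 bases, since the reads there were 464 and 463. A pseudogene, MSX2P1, had 17 and 21 reads, and reads shared with it leave the level of MSX2 uncertain.

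Of 6 DLX genes, homeodomain factors of forebrain interneurons, jaw and bone, 5 were expressed. They lie as 3 convergent pairs, with gaps of 9352 to 15045 bases between the genes of a pair, and in every pair 1 gene was the higher in both libraries. DLX5, a bone and jaw factor (chromosome 7, minus strand), had 301 and 384 reads (7.10 and 8.62 RPKM), and its neighbour DLX6, 9352 bases away, was at 1.56 and 1.54 RPKM. DLX2, of interneurons and jaw, was at 5.12 and 4.70 RPKM, and DLX1, 9761 bases away, at 2.21 and 1.90 RPKM. DLX4 was at 1.52 and 1.53 RPKM and DLX3, a factor of skin and placenta, at 0.922 and 0.830. No DLX gene had fewer than 56 and 53 reads.

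Of the 6 sine oculis genes, 4 were expressed, and neighbours on a chromosome stood at different levels. SIX2 and SIX3, the latter a factor of forebrain and eye, lie 59083 bases apart, and SIX2 was 40.2 times as high in the SIK1_WT library and 29.98 times in the SIK1_S435D library, SIX3 having 19 and 25 reads. On chromosome 14, SIX4 was at 1.397 and 1.392 RPKM, and SIX6, a factor of eye and pituitary, had 0 reads. SIX5 was at 2.26 and 2.52 RPKM, but 59.3% of its exon bases are shared with clone-named antisense genes that had 153 and 192 and 88 and 88 reads. The IRX genes divided by cluster. On chromosome 16, IRX3 was followed by IRX5 at 3.47 and 3.06 RPKM and IRX6 at 0.763 and 0.625 RPKM, and on chromosome 5, IRX4, a ventricular factor of the heart, had 13 and 10 reads while IRX1 and IRX2 had 0.

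**Figure D3:**
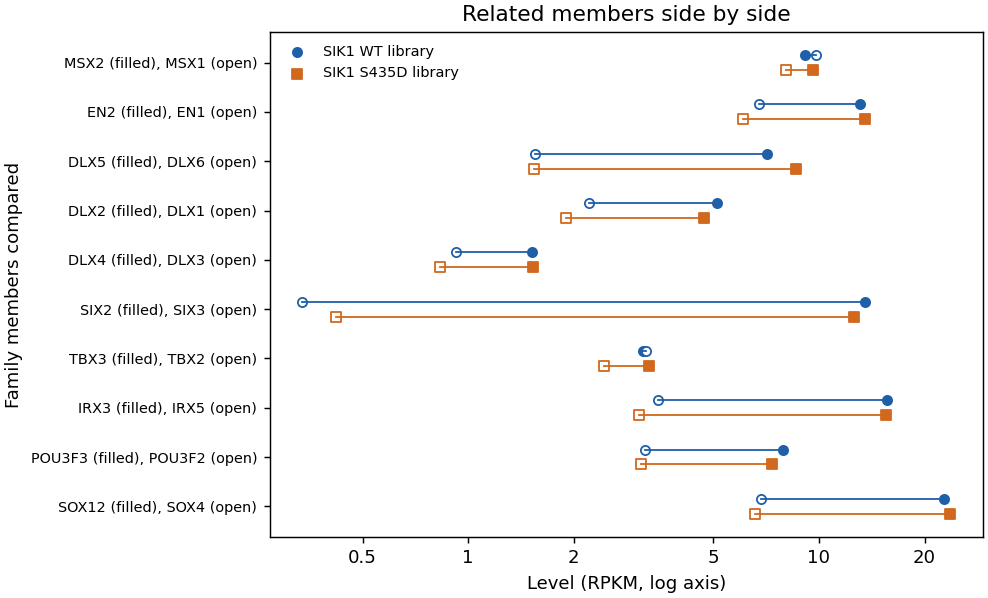
Level in RPKM (log axis) of 10 pairs of related members, the first gene filled and the second open, in the SIK1_WT library (circles) and the SIK1_S435D library (squares). The order within a pair is the same in both libraries except for MSX2 with MSX1 and TBX3 with TBX2. In the SIK1_WT library these had close reads, 463 and 464 for MSX2 and MSX1 and 420 and 432 for TBX3 and TBX2.

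Of 13 T-box genes, 3 were expressed. TBX1, a factor of the pharyngeal arches, was at 8.15 and 7.44 RPKM and shares 8.01% of its exon bases with GNB1L. TBX3, a repressor needed for mammary gland formation, had 420 and 460 reads (3.16 and 3.29 RPKM). TBX2, its close relative and a repressor of cell cycle inhibitor genes (chromosome 17, plus strand), had 432 and 346 reads (3.20 and 2.44 RPKM). Next to it, 42937 bases away, the hindlimb factor TBX4 had 3 reads in each library, and the forelimb factor TBX5 had 0. TBX18, a factor of heart and urinary tract mesenchyme, was at 0.750 and 0.833 RPKM, TBX20 had 22 and 19 reads, TBX6 had 24 and 35, and TBX15 and TBX22 had 0. TBX21, known as T-bet in T cells, had 9 and 24 reads where the T cell marker CD3E had 0 and 2.

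The PAX and LHX genes lay low. PAX3, of neural crest and muscle precursors, was at 2.21 and 2.34 RPKM, PAX6, of eye and brain, at 1.39 and 1.24, and PAX9, of tooth and pharyngeal pouch, at 1.0 and 1.06 RPKM, with 7.97% of its exon bases shared with SLC25A21. PAX2, a kidney factor, had 87 and 103 reads, PAX7, the relative of PAX3 in muscle stem cells, 67 and 52, and PAX1 63 and 60. PAX8, the thyroid and kidney factor, and PAX5, the B cell factor, had 3 and 1 and 5 and 1 reads. The only LHX gene above 1 RPKM was LHX2, a factor of eye and hair follicle, at 1.26 and 1.30 RPKM. LHX6, of cortical interneurons, was at 0.825 and 0.925 RPKM, LHX1, of kidney and motor neurons, at 0.916 and 0.758, and LHX5 had 0 reads. Neither OTX gene was expressed by this measure, OTX1 having 70 and 69 reads and OTX2 37 and 27. Of the members not yet named, POU6F1 (78 and 80 reads), POU2F2 (58 and 60), LHX9 (28 and 32), LHX8 (20 and 25) and SOX15 (15 and 10) lay below the line with 20 or more reads in all. TBX10, SOX30, LHX3 and POU1F1 had at most 2 reads in either library, and POU2F3, POU5F2 and PAX4 had 0. The 1 RPKM line fell between SOX7 and PAX9, at a mean of 1.03 RPKM each, and POU2F1 and LHX4, at 0.934 and 0.932.

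The S435D and WT libraries were then compared gene by gene. In bulk RNA, fewer cells that express a gene and less RNA per cell cannot be told apart. Few members differed. By a fixed rule of size, 1.2-fold on log2 of RPKM plus a pseudocount of 0.5, 0 of the 33 expressed members were higher in the SIK1_S435D library, where 4.43% of 13290 expressed genes of all kinds were, and 2, MSX1 and TBX2, were lower, where 7.92% of all expressed genes were. Among annotated protein-coding genes those shares were 1.49% and 3.30%. The members' counts are near these backgrounds, and the smallness of the list limits what they can show. The median log2 ratio of the expressed members was -0.011, with 13 above 0 and 20 below, and that of all expressed genes -0.024, with 57.1% below 0. Centring on the median of all genes, a shift of 0.024, or scaling by a trimmed mean, turned the members' median to 0.014. After either, MSX1 no longer passed the rule of size and DLX5 did.

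**Figure D4:**
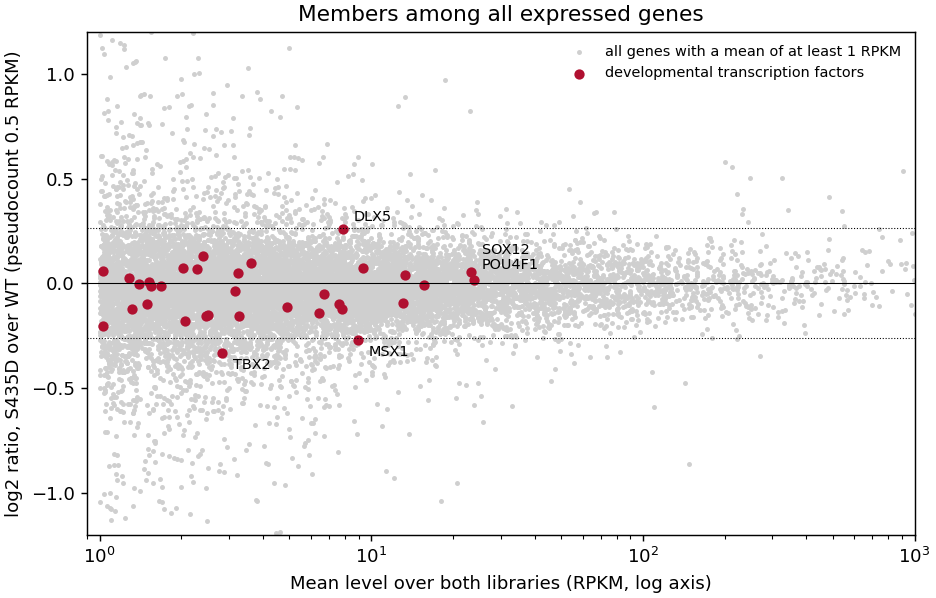
The log2 ratio of SIK1_S435D over SIK1_WT against mean level in RPKM (log axis) for all expressed genes (grey) and the 33 expressed members (red), dotted lines marking 1.2-fold. TBX2 and MSX1 lie below the lower line and DLX5 just under the upper one, and 121 genes lie outside the axes.

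A second description used the counting interval of the fold, the ratio of RPKM without a pseudocount. Among the 62 members with 20 or more reads, the interval lay above 1 for 3, where it did for 7.32% of 17873 such genes in the table, and below 1 for 4, where it did for 12.5%. Among 13063 annotated protein-coding genes with 20 or more reads those shares were 8.08% and 13.4%. The members' counts are 4.84% and 6.45% of the 62, which is under both backgrounds in both directions. Reads set the width of an interval, and their part in this was not tested.

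The largest difference among expressed members was that of TBX2, with a fold of 0.762 (0.659 to 0.879). MSX1 had a fold of 0.822 (0.717 to 0.941), and DLX5 was the only expressed member with an interval above 1, at 1.21 (1.04 to 1.42). Neither TBX2 nor DLX5 nor MSX1 shares exon bases with a gene that had reads. Below 1 RPKM, LHX4, a pituitary and motor neuron factor, had 151 and 107 reads and a fold of 0.674 (0.521 to 0.869). On the other strand ACBD6 shares 30.8% of its exon bases and had a fold of 1.01 (0.964 to 1.06), and the part of these shared bases in the value of LHX4 was not tested. Calls of TBX21 and TBX19 rest on few reads: TBX21 with 9 and 24 (2.54, 1.14 to 6.20), and TBX19, a factor of pituitary corticotrophs, with 19 and 7 (0.350, 0.1245 to 0.870). Among the 30 other expressed members the interval included 1, and their folds ran from 0.812 for SOX7 to 1.12 for SIX5.

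**Figure D5:**
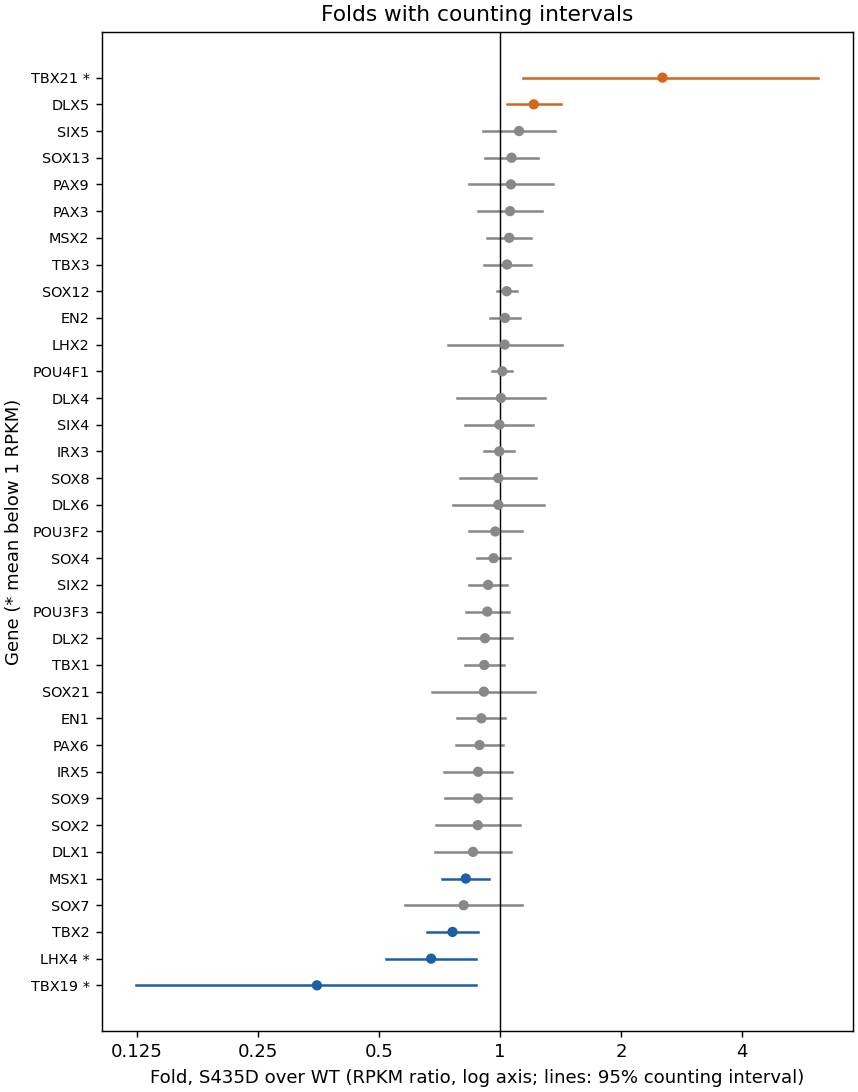
Fold of SIK1_S435D over SIK1_WT (log axis) with its 95% counting interval for 32 expressed members and, marked by an asterisk, 3 members below 1 RPKM. Orange marks an interval above 1 (TBX21, DLX5), blue an interval below 1 (MSX1, TBX2, LHX4, TBX19) and grey an interval that includes 1.

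Related members were then set against each other within each library, in 10 pairs named after their values were seen, which cancels any scaling between libraries. The ratio of TBX3 to TBX2 was 0.985 in the SIK1_WT library and 1.35 in the SIK1_S435D library, 1.37 times as high (1.12 to 1.67). That of MSX2 to MSX1 was 0.932 and 1.19, 1.28 times as high (1.06 to 1.55). In the other 8 pairs the interval of this change included 1, as for DLX5 to DLX6, with ratios of 4.57 and 5.59 (1.23, 0.904 to 1.66), and EN2 to EN1 (1.15, 0.973 to 1.35). The pairs whose interval left out 1 hold TBX2 and MSX1, the members called lower above. These ratios use the same reads as the folds and are not independent of them.

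Summed over a family, the ratio furthest from 1 was that of OTX, which rests on 107 and 96 reads. From those reads it was 0.853 (0.641 to 1.13). Summed RPKM stood lower in the SIK1_S435D library for 10 of 11 families, from 0.831 times for OTX to 0.993 for POU, and higher for DLX at 1.04, but after centring or a trimmed mean it stood lower in 5 families and higher in 6. From summed reads the T-box ratio was 0.930 (0.869 to 0.995), an interval whose upper end moved to 1.01 after centring and 1.02 with a trimmed mean, and for the other 10 families the interval included 1. The SOX ratio was 1.001 (0.961 to 1.04) and the POU ratio 0.991 (0.948 to 1.04). Over all 87 genes the libraries held 18105 and 18663 reads, a ratio of 0.980 (0.960 to 1.001).

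Genes that act with these families were read from lists of cofactors, signals and targets, by the same 1.2-fold rule, which 4.43% of all expressed genes passed as higher and 7.92% as lower. Of 6 cofactors of the sine oculis proteins, the EYA phosphatases and DACH repressors, 5 were expressed, 1 was higher and 0 lower: DACH1 had 300 and 436 reads (2.49 and 3.44 RPKM), a fold of 1.38 (1.19 to 1.61), while EYA2 was at 5.72 and 5.24 RPKM and EYA3 at 5.22 and 5.18. The list of LIM partners of the LHX proteins held 14 genes, among them the LIM homeodomain factors ISL1, ISL2, LMX1A and LMX1B. Of the 14, 8 were expressed and 0 passed in either direction. They were led by the adaptor LDB1 at 34.7 and 32.1 RPKM, with SSBP3 at 8.58 and 8.17 and SSBP4 at 6.31 and 6.72 RPKM. Of 11 TALE homeodomain cofactors, 9 were expressed and 0 passed, with PBX2 at 20.9 and 20.3 RPKM, TGIF2 at 7.79 and 6.91, and MEIS3 at 6.56 and 6.96 RPKM. Of 6 genes of the Groucho family in the table, 5 were expressed and 0 passed, with AES at 14.1 and 13.1 RPKM, TLE1 at 9.10 and 8.21, and TLE4 at 6.55 and 7.84 RPKM.

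The BMP list held 16 genes, 9 of them expressed, of which 0 were higher and 2 lower, beside 4.43% and 7.92% of all expressed genes. BMP4, a ligand that induces MSX genes in the embryo, had 224 and 178 reads (3.25 and 2.45 RPKM; fold 0.756, 0.617 to 0.924), and SMAD6, a feedback inhibitor of the pathway, had 529 and 441 reads (2.76 and 2.19 RPKM; fold 0.793, 0.697 to 0.901). The antagonist NOG was at 4.47 and 4.56 RPKM and BMP7 at 3.82 and 3.64 RPKM. The inhibitor SMAD7 was at 1.57 and 1.89 RPKM (fold 1.2, 0.947 to 1.52), and of the 9 expressed genes 3 had a log2 ratio above 0 and 6 below. Of 21 Hedgehog and WNT genes, 13 were expressed and 0 passed, led by CTNNB1 at 17.1 and 16.2 RPKM, SMO at 10.3 and 10.7, and FZD2 at 7.45 and 7.51 RPKM. Of 11 pluripotency partners of SOX2 and POU5F1, 1 was expressed: LIN28B, which blocks let-7 maturation, had 473 and 622 reads (3.52 and 4.41 RPKM; fold 1.25, 1.11 to 1.41). Next came UTF1 with 19 and 28 reads and SALL4 with 95 and 91, and NANOG had 0. Of 13 cartilage and crest targets of SOX9 and SOX10, 2 were expressed, COL2A1 at 4.68 and 4.85 RPKM and COL27A1 at 2.55 and 2.17 RPKM, neither past the rule. The expressed members' median log2 ratio was 0.012 for the EYA and DACH cofactors, -0.0068 for the LIM partners, 0.025 for TALE, -0.064 for Groucho, -0.061 for BMP, -0.056 for Hedgehog and WNT and -0.074 for the SOX targets, against -0.024 for all genes.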

How the data were processed

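RNA sequencing measured gene levels in 2 libraries, 1 for each SIK1 construct. The deposited table gives RPKM, in which reads are divided by the length of the gene and the depth of the library, with exon positions and length, per the file headers. Which aligner, counting program, strand setting and build were used is not given in the sources used here. Positions fit GENCODE release 29 (GRCh38): start and end were equal for 26426 of 27957 genes with the same symbol and place (94.5%) and for 80 of the 87 members. The rest of the 43337 genes had no such match, carried no gene type and are left out of the protein-coding background.

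Whole reads were recovered by dividing RPKM times length by a single step for each library, and 100% of values above 0 lay within 0.06 reads of a whole number. Folds carry exact conditional binomial (Clopper-Pearson) 95% intervals, and ratios of ratios exact conditional odds ratio intervals, all for counting error only. An upper limit of 3 reads stands behind each 0. Exon overlap was taken from the table's own positions, and 23 members share exon bases with another gene. The 1.2-fold rule, the counting intervals and the trimmed mean were tried on counts simulated with counting error alone and planted changes larger than 1.2-fold. That could not test the spread between cultures, and the pairs, overlaps and promoters were not tried. Named genes were all members above 1 RPKM, the top member of each family, members with 20 or more reads and an interval that leaves out 1, those beside the 1 RPKM line, and the 3 most abundant genes of each list with any past 1.2-fold. A few genes that this rule names are not reported here by name, though counts include them. Other genes were named after their values were seen. The members, lists and rules were chosen with earlier results of these data known. Promoters not used here include those of IRX3, DLX5, EN1, IRX5, TBX3, TBX2, SOX9, SIX5, SOX8, DLX4 and SOX7.

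The settings varied were the pseudocount (0.1 and 1 RPKM), the filter (none, 5 RPKM or 20 reads), centring, a trimmed mean of log ratios, a 1.5-fold rule and leaving out members with overlapping genes. A protein-coding background was added after the values had been seen. Software was matplotlib 3.10.9, SciPy 1.17.1, pandas 2.3.3 and numpy 2.4.6 under Python 3.11.15.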

Additional observations from a re-analysis of the deposited data

How the results depend on the processing

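The number of members past the filter was 33 in the main setting, 87 with no filter, 12 at a mean of at least 5 RPKM and 62 at 20 or more reads. The count of members 1.2-fold higher, 0 in the main setting, became 1 with a pseudocount of 0.1 RPKM, with no filter, at 20 or more reads, after centring and with a trimmed mean of log ratios. In those 5 settings the share of all genes that was higher was 5.7%, 4.9%, 4.2%, 5.3% and 5.5%, against 4.43% in the main setting. The count 1.2-fold lower, 2 in the main setting, became 3 with a pseudocount of 0.1 RPKM, 1 with a pseudocount of 1 RPKM, at a mean of at least 5 RPKM, after centring and with a trimmed mean, 6 with no filter, 5 at 20 or more reads and 0 under a 1.5-fold rule. Without members that share exon bases the count of members 1.2-fold lower was 1, since TBX2 touches a gene that had 0 reads. The number of members with an interval below 1 then went from 4 to 2. The median log2 ratio of the members went from -0.011 to 0.014 after centring and to 0.014 with a trimmed mean. None of the 37 folds tried under both scalings left its own counting interval. This outcome was fixed in advance and shows no robustness. Centring and the trimmed mean divide every S435D value by 0.983 and 0.978, a shift too small to leave any of these intervals. With a trimmed mean the interval of SOX12 moved above 1, which made 4 such members in place of 3. No paired analysis was possible because each group holds 1 library, and for the same reason no library could be left out. The depth sets the width of each counting interval, and the spread between cultures is unknown.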

Other observations

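LIM homeodomain genes outside the LHX name were expressed beside POU4F1. ISL2, a factor of motor and sensory neurons, had 261 and 274 reads (5.25 and 5.25 RPKM in the SIK1_WT and the SIK1_S435D library), ISL1, which acts with POU4F1 in sensory neurons, had 110 and 107 reads (1.71 and 1.58 RPKM), and LMX1B, a factor of dorsal limb and midbrain, had 451 and 470 (3.46 and 3.43 RPKM). Their folds were 0.998 (0.840 to 1.19), 0.925 (0.702 to 1.22) and 0.991 (0.869 to 1.13). LMX1A had 0 reads in both libraries.

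Some other genes were picked from all the lists by their counting interval, so their being named is not a result about the lists. Over the whole table the interval lay above 1 for 7.32% and below 1 for 12.5% of 17873 genes with 20 or more reads. Below 1 RPKM, 2 signalling genes of the lists had a counting interval that left out 1. WNT5A had 100 and 151 reads (fold 1.44, 1.11 to 1.87), and ACVR1, a receptor of BMP ligands, had 97 and 71 (0.696, 0.505 to 0.955). Among expressed genes of the lists that did not pass the 1.2-fold rule, the interval lay above 1 for TLE4 (fold 1.196, 1.11 to 1.29) and LRP6 (1.16, 1.02 to 1.32). It lay below 1 for LDB1 (0.924, 0.870 to 0.981), TGIF2 (0.887, 0.794 to 0.992), AES (0.932, 0.870 to 0.998), TLE1 (0.901, 0.824 to 0.986), LRP5 (0.885, 0.807 to 0.971) and COL27A1 (0.850, 0.767 to 0.941).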
